A study of Mus musculus with 20 samples.

Results

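The comparison asks whether the effect of a pancreatic tumour on the transcripts of fibroadipogenic progenitors was different at day 21 from that at day 14, for which genes its direction turned, and whether the tumour-bearing or the control group differed between the days. Of the 20 libraries of the series, the 13 of these days enter: 3 KPC libraries at day 21, 3 controls at day 21, 4 KPC libraries at day 14 and 3 controls at day 14. The mice were male C57BL/6J, and the muscle was that of the hindlimb. For the KPC group, 2 M cells of the KPCY line, which derives from a pancreatic tumour of a mouse, were placed into the pancreas in 50 µL, and controls were operated on without cells (sham surgery). Freshly sorted cells were live and nucleated, carried SCA-1 and lacked CD31, CD45 and α7-integrin. Ages, and whether animals were pooled, are not given here. The labels call the replicates biological, but no label says that each is 1 mouse.

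Fibroadipogenic progenitors are stromal cells that lie between muscle fibres. They make much of the muscle's extracellular matrix, support its stem cells after injury, and answer inflammatory signals with cytokines and chemokines of their own, among them interleukin 6. Interleukin 6 acts through the transcription factor STAT3, whose targets include acute phase proteins and the feedback inhibitors of the SOCS family, and NF-kappaB and AP-1 drive many of the same secreted factors.

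Libraries held between 12.9 and 26.4 M counts (megacounts), and Pearson's r within a group, over genes in log2 CPM (counts per megacount of TMM-scaled library size), ran from 0.9427 to 0.9808. The first principal component held 24.3% of the variance. KPC day 21 libraries lay between -75.9 and -28.5 on it, with replicate 2 farthest out, day 21 controls between 21.3 and 25.2, KPC day 14 libraries between 1.35 and 11.2, and day 14 controls between 17.5 and 28.6. The sort markers were present in every library. Ly6a, which encodes SCA-1, had 1093 to 1210 CPM in KPC and 1090 to 1222 CPM in control libraries of day 21, and 806 to 984 CPM in KPC and 916 to 1116 CPM in control libraries of day 14, and Pdgfra, the receptor gene that marks these progenitors, lay between 1233 and 1680 CPM throughout. The leading numbers of the library codes differ between all 4 groups, so whatever they stand for cannot be told apart from tumour or day. Within groups, KPC day 14 replicate 4 and KPC day 21 replicate 2 each carry a leading number that the other replicates of their group do not.

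Of 13834 genes tested, 1131 (8.18%) had a called difference between the KPC effect at day 21 and that at day 14, which is an adjusted p under 0.05 in edgeR's quasi-likelihood test with Benjamini-Hochberg adjustment. In 588 genes (4.25%) the effect was higher at day 21, and in 543 (3.93%) it was lower. At day 21 the KPC effect itself was called in 2097 genes (15.2%), and at day 14 in 51 (0.369%). Signs were opposite at the 2 days in 933 of the 1131 genes, 497 of them higher and 436 lower at day 21. In 718 of the 1131, however, the day 14 effect had an unadjusted p of 0.05 or more, so its sign is uncertain. A called difference also favours opposite signs, so this count is not one of reversals. Of the 198 with the same sign, 194 had the larger effect at day 21 and 4 at day 14. Scaling to library size alone gave 1158 calls, but split them into 730 higher and 428 lower. Without control day 21 replicate 2 the count was 582, and with the day 26 libraries in the fit it was 91. Of the 71 genes named in the text with a called difference, 29 kept the call in that fit. Il6 (adjusted p 0.0142), Ccl7 (0.0319) and C4b (0.00158) were among them, while Spon2 (0.186), Eln (0.0992), Ccl2 (0.235), Hk2 (0.352), Lcn2 (0.188), Sqle (0.120) and Col3a1 (0.350) were not.

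A gene is said to have turned where the difference was called and the KPC effect had opposite signs with an unadjusted p under 0.05 at each day. This held for 318 genes (2.30%), of which 193 were higher and 125 lower at day 21. In 7 genes (5 higher and 2 lower) the adjusted p was under 0.05 at both days as well. That count depended on the fit: DESeq2 gave 43 higher and 11 lower, limma-voom 71 and 41, and the fits with the endothelial covariate or with the day 26 libraries 0 and 0. Leaving out single libraries gave 1 to 20 higher and 0 to 12 lower, with 20 and 12 without KPC day 21 replicate 1. The cytokine gene Il6, the pentraxin gene Ptx3, the chemokine genes Cxcl13 and Ccl7, and the signal inhibitor genes Cish and Trib1 were among the largest that turned from lower in KPC at day 14 to higher at day 21. The matrix genes Spon2 and Eln were among the largest that turned the other way. Groups did not overlap at day 21 in 168 of the 193 and 107 of the 125, and at day 14 in 110 and 83, against 4488 and 1811 of all 13834 genes tested at day 21 and day 14. The rule itself asks for a difference between the groups at each day, so these counts are a description. When the mean log2 CPM of the endothelial markers in a library entered as a covariate, 33 genes turned (27 higher and 6 lower), 31 of them among the 318. The difference itself was called in 1148 genes with the covariate, 1063 of them among the 1131. Summed endothelial markers were higher in every KPC library than in every control library of the same day. The covariate therefore goes with tumour within each day, and this fit cannot tell the part of endothelial markers from that of tumour.

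**Figure D1:**
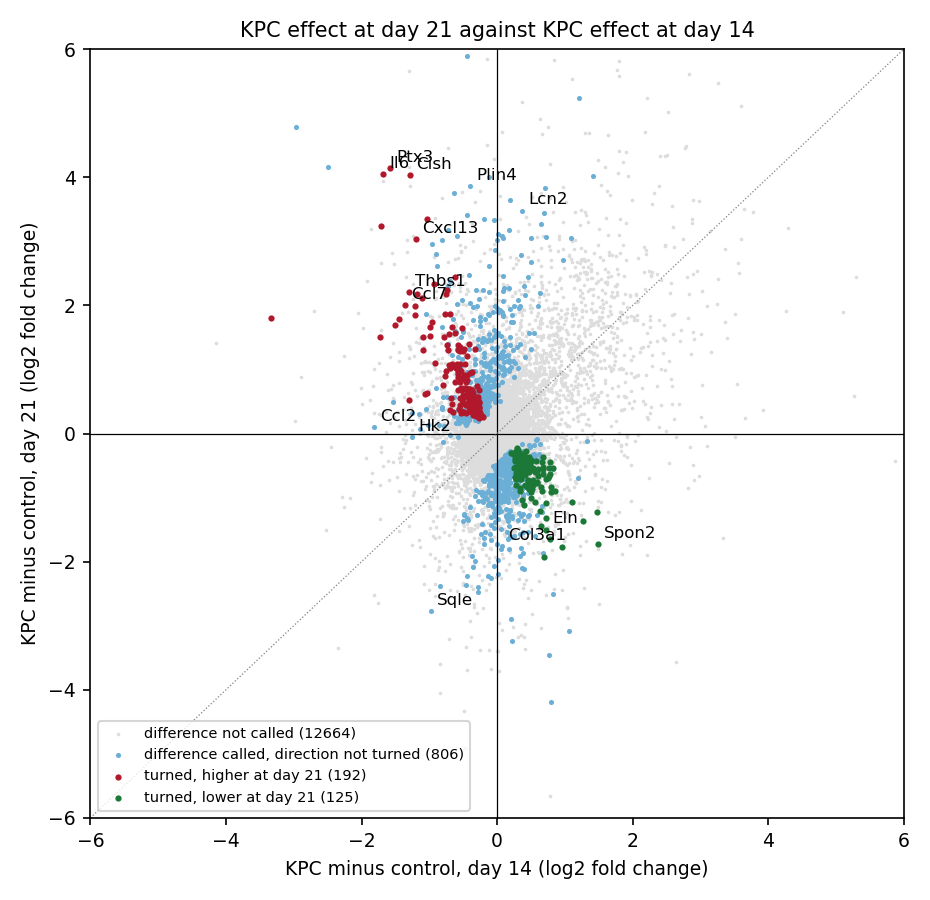
Each point is a gene, with the log2 fold change of KPC over control at day 14 on the x axis and at day 21 on the y axis. Red points (upper left, lower in KPC at day 14 and higher at day 21) and green points (lower right) are genes whose direction turned, blue points have a called difference without that, and the dotted line marks equal effects. The 47 genes beyond 6 on either day's effect or move are not drawn.

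Promoters were taken from the turned genes with the largest differences in each direction, not from all that turned. Of these, the genes with the smallest p and an entry in RefSeq's promoter table were used. The 250 bases before RefSeq's gene start are shown, so that the sequence upstream of genes that turned is at hand. Each is read 5′ to 3′ on the gene's strand (GRCm38.p6, the genome of mm10). Cish lies at chr9:107296409-107296658 on the plus strand, Cxcl13 at chr5:95956689-95956938 on the plus strand and Mrgprg at chr7:143766994-143767243 on the minus strand. The GENCODE model of Cish starts farther upstream, so that its window lies within that gene model. Capitals mark matches to any of 9 short motifs.
Cish: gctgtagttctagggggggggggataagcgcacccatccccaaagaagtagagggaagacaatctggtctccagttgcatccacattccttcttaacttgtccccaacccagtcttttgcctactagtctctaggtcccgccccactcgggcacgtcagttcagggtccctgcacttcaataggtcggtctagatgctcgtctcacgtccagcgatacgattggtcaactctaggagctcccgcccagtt
Cxcl13: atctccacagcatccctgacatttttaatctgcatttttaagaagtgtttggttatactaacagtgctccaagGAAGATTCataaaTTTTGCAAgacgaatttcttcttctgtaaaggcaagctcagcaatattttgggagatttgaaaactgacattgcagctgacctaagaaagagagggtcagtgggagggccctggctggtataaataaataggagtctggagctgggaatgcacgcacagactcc
Mrgprg: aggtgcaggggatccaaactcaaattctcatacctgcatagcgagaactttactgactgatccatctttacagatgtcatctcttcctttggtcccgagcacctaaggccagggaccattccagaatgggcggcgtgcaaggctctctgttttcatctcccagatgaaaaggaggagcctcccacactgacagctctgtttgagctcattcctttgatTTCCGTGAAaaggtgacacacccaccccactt

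The motifs were NF-kappaB (GGGANTTTC), AP-1 (TGANTCA), CRE (TGACGTCA), STAT (TTCNNNGAA), C/EBP (TTGCNNAA), E-box (CACGTG), D-box (TTATGNAA), a sterol regulatory element (TCACNCCAC) and a heat shock element (GAANNTTC), searched on both strands. The Mrgprg window holds the STAT letters at -32 from the gene start, and 1940 of 27025 promoters in the table (7.18%) hold them in a window of the same length. In the Cxcl13 window, the C/EBP letters stand at -164 on the opposite strand (9.55% of all promoters) and the heat shock letters at -177 (6.78%). Cish had 0 matches in this window.

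Il6 (chromosome 5, 30013114 to 30019981, mm10), the gene of interleukin 6, had 41.0, 36.9 and 39.8 CPM in KPC libraries of day 21, against 1.51, 2.67 and 2.96 CPM in controls of day 21. At day 14 it had 9.90, 12.7, 1.66 and 24.4 CPM in KPC libraries, against 46.4, 44.8 and 28.6 CPM in controls. Levels in KPC day 21 and day 14 control libraries overlapped, the groups of each day did not, and the day 21 controls were low. The difference between the effects was 5.73 ± 0.91 on the log2 scale (SE, adjusted p 0.0062), made of an effect of 4.05 ± 0.72 at day 21 (adjusted p 0.0050) and of -1.68 ± 0.57 at day 14 (adjusted p 0.24). In controls Il6 fell by 4.07 ± 0.72 between day 14 and day 21 (adjusted p 0.0044), while in KPC mice it was 1.66 ± 0.57 higher at day 21 and missed the threshold (adjusted p 0.069).

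Ptx3 (chromosome 3, 66219910 to 66225805), which encodes pentraxin 3, a secreted pattern recognition protein, had the same shape. Its level was 155, 182 and 156 CPM in KPC libraries of day 21, against 7.75, 10.2 and 9.80 CPM in controls of that day. Day 14 levels were 30.3, 54.9, 21.8 and 81.0 CPM in KPC libraries, against 150, 137 and 139 CPM in controls. Here both groups moved, the controls by -3.94 ± 0.44 (adjusted p 2.9e-04) and the KPC libraries by 1.80 ± 0.36 (adjusted p 0.0064), and the difference was 5.73 ± 0.56 (adjusted p 5.2e-04).

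Cish, a STAT-induced inhibitor of cytokine signalling, was low in 3 of the 4 groups. It had 17.5, 13.8 and 13.7 CPM in KPC libraries of day 21, against 1.27, 0.620 and 0.810 CPM (32, 13 and 20 counts) in controls of that day. Its levels at day 14 were 1.63, 2.04, 0.906 and 2.44 CPM in KPC libraries, against 6.40, 3.23 and 3.42 CPM in controls. KPC libraries of day 21 stood above all others, and the difference of 5.32 ± 0.51 (adjusted p 1.1e-05) came from a rise of 3.06 ± 0.33 in KPC and a fall of 2.26 ± 0.38 in controls. Trib1, which encodes a pseudokinase that promotes degradation of C/EBP proteins, averaged 98.2 ± 13.7 CPM in KPC and 21.6 ± 3.28 CPM in control libraries at day 21 (SD, n = 3 each), and 25.9 ± 5.83 CPM in KPC (SD, n = 4) and 58.9 ± 27.5 CPM in control libraries (SD, n = 3) at day 14. Its difference was 3.37 ± 0.40 (adjusted p 7.0e-04), and both groups moved.

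In the list of IL-6 signalling, STAT3 and acute phase genes, 15 of 26 tested had a higher effect at day 21 and 1 a lower one, where 4.25% of all genes tested were called higher and 3.93% lower. The median difference was 1.74, against 0.025 over all genes tested. The direction turned in 3 of them, Il6, Ptx3 and Cish (2.30% of all genes tested turned). A group is counted as moved where its change between the days had an adjusted p under 0.05. Moved in 1 group alone therefore means that the other group missed this threshold, not that it stayed the same. KPC alone moved in 11 of the 16, where it did in 563 of all 1131 genes with a called difference. Lcn2, the acute phase gene of lipocalin 2, had 17.9, 22.2 and 11.9 CPM in KPC libraries of day 21 and 0.668 to 2.77 CPM in the other 10 libraries. Serpina3n, a serine protease inhibitor gene of the acute phase, had 467, 1064 and 622 CPM in KPC libraries of day 21 and 75.3 to 143 CPM elsewhere. Haptoglobin (Hp), the receptor gene Osmr and Stat3 also had a higher effect at day 21 (differences of 3.01 ± 0.61, 1.82 ± 0.25 and 1.00 ± 0.21). Their day 14 effects of 0.08, 0.07 and -0.14 were not called and did not meet the rule for a turn. The exons of Stat3 overlap those of another gene on the other strand.

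Among the chemokine ligands, 8 of 17 tested genes had a higher effect at day 21 and 0 a lower one (median difference 1.05), and 5 turned. Over all genes tested, 4.25% had a higher effect and 2.30% turned. Ccl7 (chromosome 11, 82045712 to 82047525), a monocyte chemoattractant gene, was among the 7 genes called at both days. It had 42.0, 35.0 and 33.0 CPM in KPC libraries of day 21, against 8.54, 11.01 and 7.82 CPM in controls of that day. At day 14 its level was 21.5, 21.8, 12.1 and 22.3 CPM in KPC libraries, against 57.4, 37.2 and 56.1 CPM in controls. The effects were 2.01 ± 0.22 at day 21 (adjusted p 2.0e-05) and -1.37 ± 0.20 at day 14 (adjusted p 0.0040), and their difference was 3.37 ± 0.30 (adjusted p 1.1e-05). KPC libraries at day 21 lay below 2 of the 3 controls of day 14. The controls fell by 2.47 ± 0.23 and the KPC libraries rose by 0.91 ± 0.20.

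Cxcl13, the gene of a B cell chemokine, had 129, 267 and 108 CPM in KPC libraries of day 21, against 18.9, 18.8 and 23.6 CPM in controls of that day. At day 14 it had 40.3, 31.9, 27.9 and 32.8 CPM in KPC libraries, against 73.5, 76.5 and 80.0 CPM in controls. Unlike Ccl7, its KPC libraries at day 21 exceeded every other library, with a rise of 2.33 ± 0.26 in KPC and a fall of 1.91 ± 0.29 in controls (difference 4.24 ± 0.39, adjusted p 1.6e-04). Cxcl10, an interferon-induced T cell chemokine gene whose exons overlap another gene, moved in controls alone, with 2.34 to 3.91 CPM at day 21 against 13.6 to 17.6 CPM at day 14. Cxcl1, a neutrophil chemoattractant gene, also moved in controls alone (difference 2.70 ± 0.56, adjusted p 0.019), as did Ccl8 (difference 1.72 ± 0.41, adjusted p 0.015). Their KPC moves of 0.88 ± 0.38 (Cxcl1) and 0.70 ± 0.28 (Ccl8) were not called (adjusted p 0.13 and 0.081). Without control day 21 replicate 1 the adjusted p of Cxcl1 was 0.0605, and without control day 14 replicate 1 it was 0.0506.

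Ccl2, the main monocyte chemoattractant gene, had 15.2, 14.0 and 16.7 CPM in KPC libraries of day 21, against 13.9, 17.0 and 11.99 CPM in controls of that day. On day 14 the level was 18.2, 19.3, 11.6 and 18.3 CPM in KPC libraries, against 75.4, 57.3 and 46.0 CPM in controls. The day 14 controls alone were high, and the other 3 groups overlapped. Its difference of 1.92 ± 0.27 (adjusted p 4.8e-04) goes with a fall of 2.06 ± 0.20 in controls (adjusted p 5.6e-06), with a KPC move of -0.14 ± 0.19 (adjusted p 0.64), and with no called effect at day 21 (0.10 ± 0.20).

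**Figure D2:**
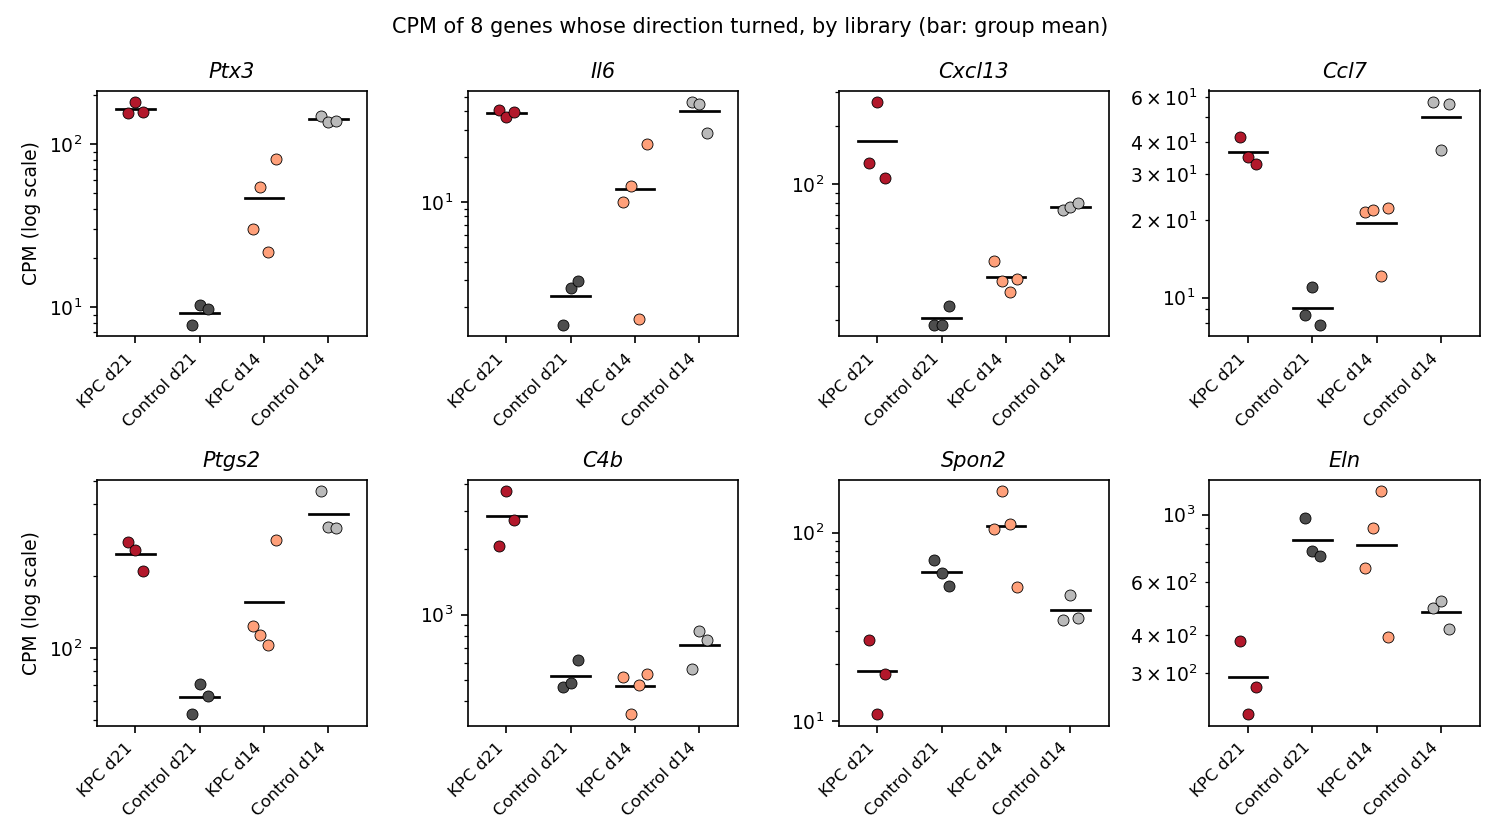
CPM on a log axis for 8 genes whose direction turned, with 1 point per library and a bar at the group mean, for KPC day 21, control day 21, KPC day 14 and control day 14. Il6, Ptx3, Ccl7 and Ptgs2 show day 14 controls near the level of day 21 KPC libraries, C4b shows day 21 KPC libraries alone above the rest, and Spon2 and Eln show them alone below.

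In the list of NF-kappaB genes and early targets, 8 of 26 had a higher effect at day 21 (4.25% of all genes tested did) and 0 a lower one (median difference 0.58). Nfkbiz, which encodes an inhibitor-like cofactor of NF-kappaB needed for Il6 induction, turned. It had 225, 224 and 209 CPM in KPC libraries of day 21, against 36.3, 57.4 and 51.0 CPM in controls, and at day 14 60.5 to 139 CPM in KPC libraries, against 133 to 179 CPM in controls. The difference was 2.94 ± 0.36 (adjusted p 8.9e-04), and both groups moved. Nfkbia, the gene of the inhibitor IκBα, and Tnfaip3, the gene of the inhibitor A20, had differences of 2.12 ± 0.27 and 2.29 ± 0.38, with day 14 effects of -0.35 ± 0.18 and -0.30 ± 0.26 that were not called.

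Of 30 immediate-early genes, 12 had a higher effect at day 21 and 0 a lower one (median difference 1.62), and 6 turned. The shares over all genes tested were 4.25% with a higher effect and 2.30% turned. Ptgs2, the gene of the prostaglandin-forming enzyme COX-2, moved in controls alone. It had 279, 258 and 210 CPM in KPC libraries of day 21, against 52.9, 70.9 and 63.3 CPM in controls of that day. Day 14 values were 124, 113, 104 and 285 CPM in KPC libraries, against 456, 321 and 317 CPM in controls. KPC day 14 replicate 4 stood apart from the other replicates of its group and above all 3 KPC libraries of day 21. Controls fell by 2.55 ± 0.38 (adjusted p 0.0014), and the KPC move was 0.67 ± 0.33 (adjusted p 0.19).

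Myc, the growth regulator gene, moved in KPC alone, though its control move of -0.85 ± 0.29 only just missed the threshold (adjusted p 0.076). It had 341, 365 and 333 CPM in KPC libraries of day 21, against 95.7, 89.4 and 100 CPM in controls, and at day 14 59.1 to 162 CPM in KPC libraries, against 140 to 219 CPM in controls. The difference was 2.56 ± 0.40 (adjusted p 0.0039). Maff, a small MAF transcription factor gene, moved in both groups (difference 2.40 ± 0.33, adjusted p 9.5e-04). Has1, which encodes a hyaluronan synthase and belongs to the matrix processing list, had 132 to 179 CPM in KPC and 42.6 to 57.5 CPM in control libraries at day 21, and 40.1 to 151 CPM in KPC and 169 to 288 CPM in control libraries at day 14. It turned, with controls alone moving (difference 3.20 ± 0.64, adjusted p 0.017), and its KPC move of 1.05 ± 0.43 was not called (adjusted p 0.12). The difference had adjusted p-values of 0.0521 without control day 21 replicate 1 and 0.0544 without replicate 2.

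The chaperone gene Dnajb4 and the cyclin L gene Ccnl1, whose product takes part in RNA splicing, also turned with calls at both days. Ccnl1 had 168, 253 and 200 CPM in KPC libraries of day 21, against 95.3, 87.1 and 108 CPM in controls. At day 14 it had 108, 124, 108 and 152 CPM in KPC libraries, against 258, 188 and 249 CPM in controls. Day 14 controls and day 21 KPC libraries overlapped above the rest. Differences were 2.01 ± 0.22 for Ccnl1 and 1.51 ± 0.18 for Dnajb4. Fam71a rested on few counts, with 10, 16 and 5 in KPC libraries of day 21, against 0, 0 and 1 in controls of that day, and with 20, 13, 5 and 6 in KPC libraries of day 14, against 109, 55 and 97 in controls. Its day 14 controls were above all other libraries, and its fitted fold changes depend on the prior count.

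Of 21 complement genes tested, 7 had a higher effect at day 21 and 1 a lower one (median difference 0.65), where 4.25% and 3.93% of all genes tested did. Of these 8, KPC alone moved in 7, against 563 of the 1131 called genes as a whole. C4b (chromosome 17, 34728380 to 34743882), a gene of the classical pathway with a close copy that may share its reads, had 2065, 3729 and 2741 CPM in KPC libraries of day 21, against 463, 483 and 617 CPM in controls of that day. Day 14 levels were 517, 346, 473 and 532 CPM in KPC libraries, against 563, 839 and 762 CPM in controls. KPC libraries rose by 2.61 ± 0.20 (adjusted p 4.2e-06), and the control move was -0.47 ± 0.22 (adjusted p 0.17). C2 and C3, the genes of the next components, had differences of 1.57 ± 0.20 and 0.85 ± 0.17, with day 14 effects of -0.01 and -0.22. The exons of C2 overlap another gene. Cfd, an adipocyte-enriched complement gene, had 78, 69 and 64 counts in KPC libraries of day 21, against 0 in each control of that day, and 37, 64, 39 and 27 counts in KPC libraries of day 14, against 16, 18 and 28 in controls. It is the member that moved in controls alone.

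Of 24 glucocorticoid targets, 9 had a higher effect at day 21 and 0 a lower one (median difference 1.59). KPC alone moved in 8 of the 9, against 563 of all 1131 genes with a called difference. Mt2, a metallothionein gene, turned, with 795, 1081 and 909 CPM in KPC libraries of day 21, against 269, 285 and 219 CPM in controls, and 113 to 363 CPM in KPC libraries of day 14, against 294 to 743 CPM in controls. Glul, the gene of glutamine synthetase, turned with a difference of 1.63 ± 0.19 (adjusted p 6.6e-05). Pdk4, which restrains pyruvate oxidation, and Angptl4, an inhibitor of lipoprotein lipase, are targets of PPAR as well as of glucocorticoids, and had differences of 2.90 ± 0.47 and 3.83 ± 0.71. Plin4, a lipid droplet coat gene, had 21.7, 42.2 and 25.0 CPM in KPC libraries of day 21, against 1.79, 1.62 and 2.63 CPM in controls, and 3.76 to 6.18 CPM in KPC libraries of day 14, against 6.39 to 8.15 CPM in controls. Both groups moved, and the day 14 effect of -0.40 ± 0.25 was not called. Of 9 metallothionein and zinc transporter genes 3 had a higher effect at day 21 (median difference 0.27). Of 19 fatty acid oxidation genes 3 did, with a median difference of -0.00293, so that list as a whole was not shifted. Over all genes tested, 4.25% had a higher effect.

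Mrgprg, the gene of an orphan receptor of sensory neurons, and Thbs1, which encodes the matrix glycoprotein thrombospondin 1, also turned to higher and moved in KPC alone. Mrgprg had 11.4, 43.6 and 14.2 CPM in KPC libraries of day 21, against 2.11, 1.62 and 3.52 CPM in controls, and 0.727 to 0.920 CPM in KPC libraries of day 14, against 1.68 to 3.26 CPM in controls. Thbs1 had 374, 830 and 998 CPM in KPC libraries of day 21, against 170, 154 and 152 CPM in controls, and 138 to 251 CPM in KPC libraries of day 14, against 755, 146 and 453 CPM in controls. Its day 14 groups overlapped, and its control move of -1.51 ± 0.54 was not called (adjusted p 0.096). Its difference of 3.51 ± 0.74 (adjusted p 0.022) had adjusted p-values of 0.0583 without KPC day 21 replicate 2, 0.0527 to 0.0653 without any 1 of the day 21 controls and 0.0507 without control day 14 replicate 3.

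Genes that turned to lower in KPC at day 21 were led by Spon2 (chromosome 5, 33198184 to 33218455), which encodes a secreted matrix protein of the spondin family. It had 27.0, 10.8 and 17.7 CPM in KPC libraries of day 21, against 71.4, 61.3 and 52.3 CPM in controls of that day. Its day 14 levels were 105, 167, 112 and 51.3 CPM in KPC libraries, against 34.4, 46.6 and 35.5 CPM in controls. Groups did not overlap at either day. KPC libraries fell by 2.55 ± 0.41 (adjusted p 0.0023), the control move was 0.67 ± 0.40 (adjusted p 0.32), and the difference was -3.22 ± 0.57 (adjusted p 0.0096).

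Eln, the gene of elastin, had 383, 219 and 271 CPM in KPC libraries of day 21, against 977, 760 and 731 CPM in controls of that day. At day 14 it had 667, 906, 1196 and 394 CPM in KPC libraries, against 493, 521 and 418 CPM in controls. KPC day 14 replicate 4 lay below all day 14 controls, so the groups of that day overlapped. The difference was -2.23 ± 0.48 (adjusted p 0.020), with adjusted p-values of 0.0605 without KPC day 21 replicate 2, 0.0503 without control day 21 replicate 1, 0.0506 without control day 14 replicate 1 and 0.0582 without replicate 3. Col12a1, a collagen gene of fibril surfaces, turned with 43.4, 29.9 and 41.8 CPM in KPC libraries of day 21, against 50.7, 66.8 and 62.0 CPM in controls, and 56.2 to 84.9 CPM in KPC libraries of day 14, against 41.9 to 45.9 CPM in controls. Its difference was -1.31 ± 0.22 (adjusted p 0.0015).

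The genes that turned to lower with calls at both days were Dact3, which encodes an antagonist of Wnt signalling, and Sorcs2, which encodes a sorting receptor. Dact3 had 28.6, 22.3 and 40.3 CPM in KPC libraries of day 21, against 41.7, 53.2 and 38.0 CPM in controls, and 46.7 to 55.9 CPM in KPC libraries of day 14, against 27.0 to 30.2 CPM in controls. Its day 21 groups overlapped. Sorcs2 had 46.6, 30.1 and 47.4 CPM in KPC libraries of day 21, against 71.4, 61.8 and 70.3 CPM in controls, and 49.2 to 63.9 CPM in KPC libraries of day 14, against 29.6 to 39.0 CPM in controls. Both groups moved in both genes, and the differences were -1.37 ± 0.24 and -1.44 ± 0.22. Emilin3, a gene of the elastin-microfibril interface family, the transcription factor gene Foxo6, the corepressor gene Rcor2 and Apc2, a relative of the Wnt regulator gene Apc whose exons overlap another gene, turned with differences between -2.73 and -2.43, all with levels under 14 CPM in every library.

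Collagen and matrix genes had a lower effect at day 21 more often than a higher one. Of 43 tested, 21 had a lower effect and 2 a higher one (median difference -0.57), where 3.93% and 4.25% of all genes tested did. KPC alone moved in 16 of the 23, controls alone in 3, both in 3 and neither in 1. Of all 1131 genes with a called difference, KPC alone moved in 563 and controls alone in 349. Of the 43, 3 turned, where 2.30% of all genes tested did: Eln and Col12a1 (lower) and Thbs1 (higher). Col3a1, a fibrillar collagen gene, had 10591, 4402 and 6072 CPM in KPC libraries of day 21, against 24436, 20355 and 26337 CPM in controls of that day. Day 14 values were 20443, 18476, 21673 and 14826 CPM in KPC libraries, against 20201, 15854 and 17992 CPM in controls. The groups overlapped at day 14, where the effect was 0.07 ± 0.23. In Col1a1, by contrast, the controls rose by 0.56 ± 0.17 (adjusted p 0.034) while KPC libraries fell by 0.71 ± 0.16 (adjusted p 0.0056), and Fbn1, the gene of fibrillin 1, had controls higher by 0.72 ± 0.16 and KPC libraries lower by 0.70 ± 0.15. Col6a2 had a difference of -1.81 ± 0.27. Of 38 matrix processing genes, 6 had a higher and 10 a lower effect. The collagen crosslinking enzyme gene Loxl4 turned to higher (1.11 ± 0.18), as did the matrix protease gene Mmp3 (1.81 ± 0.30), while Plod1, a lysyl hydroxylase gene, turned to lower (-0.95 ± 0.18) and Loxl2 had a lower effect (-1.35 ± 0.24).

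Of 25 cholesterol genes 4 had a lower effect at day 21, where 3.93% of all genes tested did, and 0 a higher one (median difference -0.97). Sqle, a rate-limiting enzyme gene of the pathway, had 6.59, 9.04 and 10.1 CPM in KPC libraries of day 21, against 69.5, 64.3 and 41.9 CPM in controls, and 19.2 to 37.3 CPM in KPC libraries of day 14, against 48.3 to 81.0 CPM in controls. KPC was the lower group at both days, the control move was -0.07 ± 0.27, and KPC libraries fell by 1.87 ± 0.29. The list of the Dpp4/Pi16-type state, which marks progenitors of the interstitium, had 8 of 23 genes with a lower effect at day 21, among them Cd248 (-1.44 ± 0.29). Dpp4 itself had a difference of 0.48 ± 0.16 that was not called (adjusted p 0.077), and was called by DESeq2 (adjusted p 0.0350), by limma-voom (0.00976) and without KPC day 21 replicate 1 (0.0353). Of 21 progenitor identity and sort genes 4 had a lower effect, among them Thy1 (-1.52 ± 0.23) and Cd34 (-1.06 ± 0.17), whose exons overlap another gene. Ly6a and Pdgfra were not called (0.18 ± 0.15 and -0.16 ± 0.15).

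The difference between the effects equals the KPC move from day 14 to day 21 minus the control move, and the 3 quantities share libraries. Between the days 2122 genes (15.3%) were called in controls and 2746 (19.8%) in KPC libraries. Of the 1131 genes with a called difference, 563 moved in KPC alone, 349 in controls alone, 128 in both and 91 in neither. The absolute move was larger in KPC for 649 and in controls for 482. Among the 318 that turned the split was 121 in KPC alone, 117 in controls alone, 61 in both and 19 in neither.

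Among the 193 that turned to higher, controls were called lower at day 21 in 117 and higher in 0, and KPC libraries were called higher in 102 and lower in 8. The rule for a turn fixes which groups can hold the lowest or highest mean, so that only the split between those groups is open. The lowest of the 4 group means was the control of day 21 in 127 of them and KPC of day 14 in 66, and the highest was KPC of day 21 in 101 and the control of day 14 in 92. In 92 genes, therefore, the mean in KPC libraries of day 21 did not exceed that in day 14 controls. Among the 125 that turned to lower, KPC libraries were called lower at day 21 in 72 and controls higher in 60 and lower in 1, and the lowest mean was KPC of day 21 in 78 and the control of day 14 in 47. KPC day 14 replicate 4 was the highest of its group in 122 of the 193 and the lowest in 62 of the 125, and KPC day 21 replicate 2 the highest of its group in 129 and the lowest in 91. The same was not counted over all genes tested, so whether it is particular to the turned genes is not known.

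**Figure D3:**
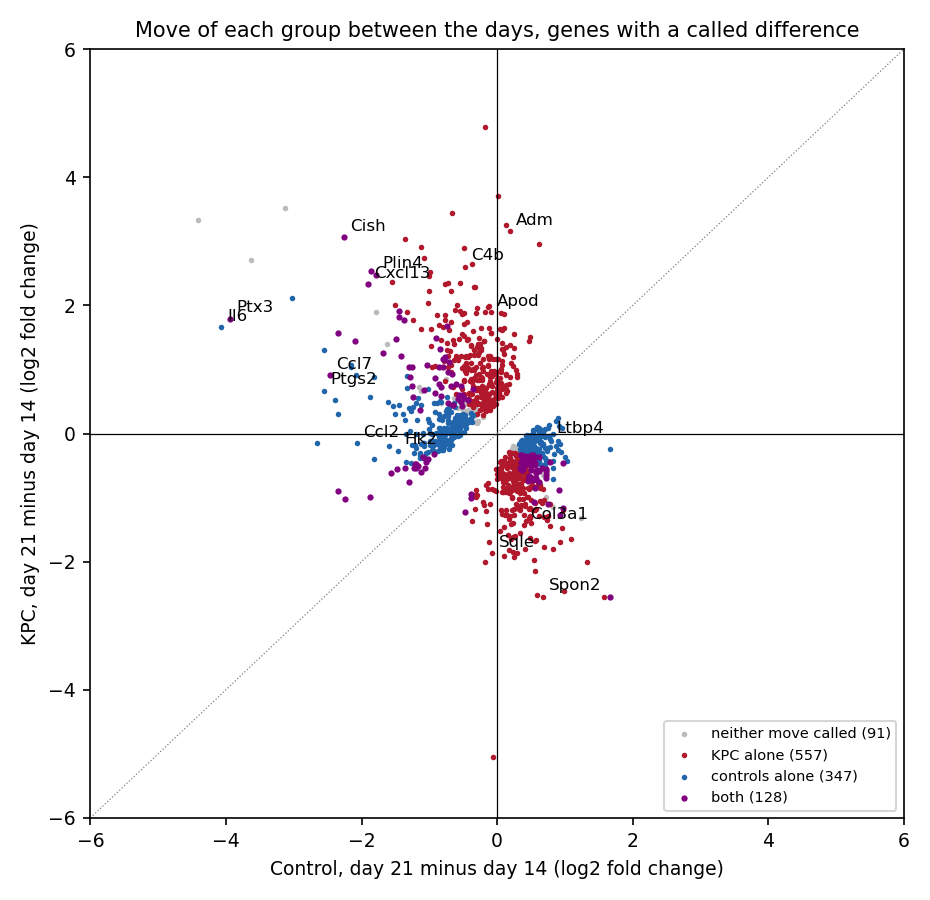
Each point is a gene with a called difference, with the log2 fold change of day 21 over day 14 in controls on the x axis and in KPC libraries on the y axis, and the dotted line marks equal moves. Red points moved in KPC alone and lie along the vertical axis (Adm, C4b, Col3a1, Sqle), blue points moved in controls alone and lie along the horizontal axis (Ccl2, Hk2, Ltbp4), and purple points moved in both. The 8 called genes beyond 6 are not drawn.

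Other genes moved in KPC alone without turning. Adm, which encodes the vasodilator peptide adrenomedullin, had 338, 1451 and 839 CPM in KPC libraries of day 21, against 101.6, 97.8 and 116 CPM in controls, and 86.1 to 107 CPM in KPC libraries of day 14, against 82.7 to 99.6 CPM in controls. Every library outside KPC day 21 stayed under 117 CPM. Apod, the gene of apolipoprotein D, had a KPC move of 1.90 ± 0.26 and a control move of -0.09 ± 0.27. On the lower side, Syt13 (a synaptotagmin gene) fell by 2.51 ± 0.39 in KPC with a control move of 0.58 ± 0.35, and had 37, 7 and 19 counts in KPC libraries of day 21. Fam78a, whose exons overlap another gene, had 1.31, 0.129 and 1.96 CPM (25, 2 and 40 counts) in KPC libraries of day 21, against 16.5, 12.4 and 9.72 CPM in controls, and had the lowest difference among the genes named (-4.21 ± 0.64), with both groups moving.

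In controls alone, the hexokinase gene Hk2 had 24.9, 23.1 and 21.7 CPM in KPC libraries of day 21, against 29.2, 21.7 and 21.7 CPM in controls of that day. At day 14 they were 22.6, 31.8, 28.7 and 28.8 CPM in KPC libraries, against 83.2, 55.1 and 61.7 CPM in controls. As in Ccl2, the day 14 controls alone were high, with a fall of 1.46 ± 0.17 in controls (adjusted p 1.5e-05) and a day 14 effect of -1.25 ± 0.15 (adjusted p 7.6e-04). The clock gene Nr1d2, which encodes a repressor of the clock's positive arm, had the same shape, with 35.7 to 67.8 CPM in the other 10 libraries, against 102 to 160 CPM in controls of day 14. Its difference of 1.58 ± 0.35 (adjusted p 0.017) had an adjusted p of 0.0544 without KPC day 21 replicate 2 and of 0.0554 without control day 21 replicate 1. Another clock gene, Nfil3, a repressor of D-box genes, moved in KPC alone (difference 2.00 ± 0.29). Of 25 clock genes 3 had a higher and 2 a lower effect at day 21 (4.25% and 3.93% of all genes tested), and no label gives the time of day at collection.

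Gch1, the gene of the rate-limiting enzyme for tetrahydrobiopterin, also moved in controls alone, with 0.283 to 0.667 CPM (7 to 14 counts) in day 21 controls against 1.82 to 4.73 CPM in day 14 controls. Its KPC move of 1.31 ± 0.47 was not called (adjusted p 0.057). Ltbp4, which encodes a latent TGF-beta binding protein, rose by 0.78 ± 0.12 in controls (adjusted p 2.1e-04) with a KPC move of -0.08 ± 0.11, and Xylt1, a proteoglycan xylosyltransferase gene, rose by 1.67 ± 0.34 with a KPC move of -0.25 ± 0.32. Without control day 21 replicate 2 the difference of Xylt1 had an adjusted p of 0.0605. Of 25 ribosome biogenesis genes 5 had a higher effect at day 21, where 4.25% of all genes tested did, and 0 a lower one. Controls alone moved in 4 of these 5, against 349 of all 1131 genes with a called difference. Among the 4 were Gnl3, a nucleolar GTPase gene with exons that overlap another gene, and Gar1, a component gene of H/ACA particles. Gnl3 had an adjusted p of 0.017, and of 0.0592 without control day 21 replicate 2, and Gar1 of 0.017, and of 0.0503 and 0.0506 without control day 21 replicate 3 and control day 14 replicate 1.

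**Figure D4:**
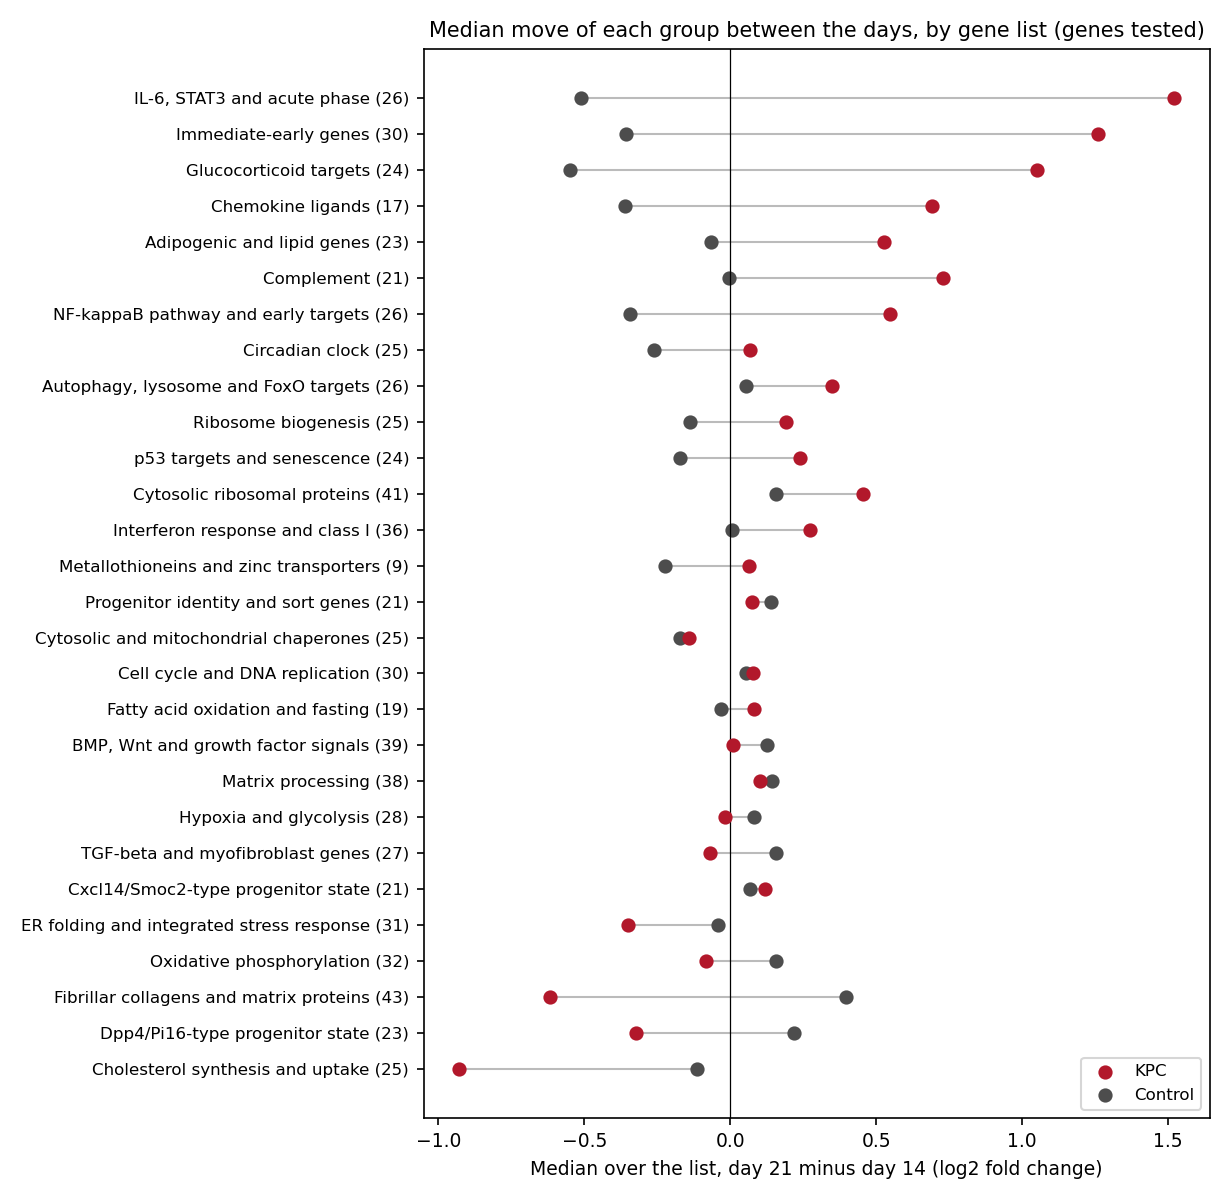
Medians over the tested genes of 28 lists, in log2 fold change of day 21 over day 14, with red points for KPC and grey points for controls, ordered by the median difference between the effects. The IL-6/STAT3 list has medians of 1.52 in KPC and -0.51 in controls, and the cholesterol list -0.93 and -0.12.

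In the glucocorticoid list the median move was 1.05 in KPC and -0.55 in controls, in the immediate-early list 1.26 and -0.36, and in the matrix list -0.62 and 0.40. In the complement list it was 0.73 and -0.01. Over all genes tested the medians were -0.02 and -0.00335. Oxidative phosphorylation had 0 of 32 genes called in either direction in edgeR (7 with an unadjusted p under 0.05), and 1 and 3 called lower by DESeq2 and limma-voom. The calls in edgeR were, for the ER folding list, 3 higher and 3 lower of 31, for cytosolic ribosomal proteins, 1 higher of 41, and for interferon response genes, 5 higher of 36. Over all genes tested, 4.25% were called higher and 3.93% lower. Of the ribosomal proteins, 28 were called higher in KPC libraries at day 21 than at day 14, and 1 in controls (19.8% and 15.3% of all genes, either direction).

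Markers of other cell types moved with some groups, and their part in the differences was not tested. The endothelial covariate above cannot be told apart from tumour within a day. The summed level of 20 endothelial markers was 1460 to 2310 CPM in KPC and 1380 to 1430 CPM in control libraries of day 21, and 1420 to 1670 CPM in KPC and 1200 to 1260 CPM in control libraries of day 14. Of these genes 14 were called higher in KPC at day 21 and 2 at day 14, where 15.2% and 0.369% of all genes were called in either direction. In edgeR 0 of 20 had a called difference between the days (5 with an unadjusted p under 0.05), with 0 by DESeq2 and 1 by limma-voom. Pecam1, which encodes the CD31 that the sort excludes, had 38.8 to 146 CPM in KPC and 15.3 to 20.2 CPM in control libraries of day 21, and 46.2 to 76.1 CPM in KPC and 8.15 to 24.9 CPM in control libraries of day 14. The 17 macrophage and monocyte markers summed to 33.6 to 175 CPM in KPC and 21.7 to 50.9 CPM in control libraries of day 21, and to 37.2 to 92.3 CPM in KPC and 23.7 to 37.2 CPM in control libraries of day 14. Ptprc, the gene of CD45, reached at most 5.495 CPM in any library, and had a difference of 0.61 ± 1.64 (adjusted p 0.87). The 20 myofibre markers summed to 145 to 780 CPM in KPC and 111 to 154 CPM in control libraries of day 21, and to 196 to 455 CPM in KPC and 88.0 to 219 CPM in control libraries of day 14.

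Single markers among the other lists had a called difference. Cspg4, a pericyte gene that progenitors may also carry, fell in KPC and rose in controls (difference -2.14 ± 0.36), while the 12 mural markers summed to 691 to 993 CPM in KPC and 732 to 827 CPM in control libraries of day 21, and to 701 to 859 CPM in KPC and 474 to 654 CPM in control libraries of day 14. Cx3cr1, a monocyte receptor gene, turned with 12, 32 and 13 counts in KPC libraries of day 21, against 5, 6 and 11 in controls, and with 10, 5, 0 and 6 counts in KPC libraries of day 14, against 70, 31 and 43 in controls. It was the 1 macrophage marker of 16 tested with a call, and it was highest in day 14 controls, where the summed macrophage markers were low. Itga7, the gene of the excluded α7-integrin, had 3.00 to 14.5 CPM in KPC and 4.34 to 5.47 CPM in control libraries of day 21, and 5.40 to 13.6 CPM in KPC and 1.84 to 3.30 CPM in control libraries of day 14 (difference -0.99 ± 0.62, adjusted p 0.36). The haemoglobin genes Hba-a1, Hba-a2, Hbb-bs and Hbb-bt had 0 counts in all 13 libraries. The list of 9 erythroid markers that holds them summed to 7.81 to 14.7 CPM in KPC and 0.556 to 3.43 CPM in control libraries of day 21. At day 14 the sums were 3.44 to 9.53 CPM in KPC and 3.23 to 3.47 CPM in control libraries. In sorted cells counted in bulk, fewer cells of a type and less RNA per cell cannot be told apart.

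**Figure D5:**
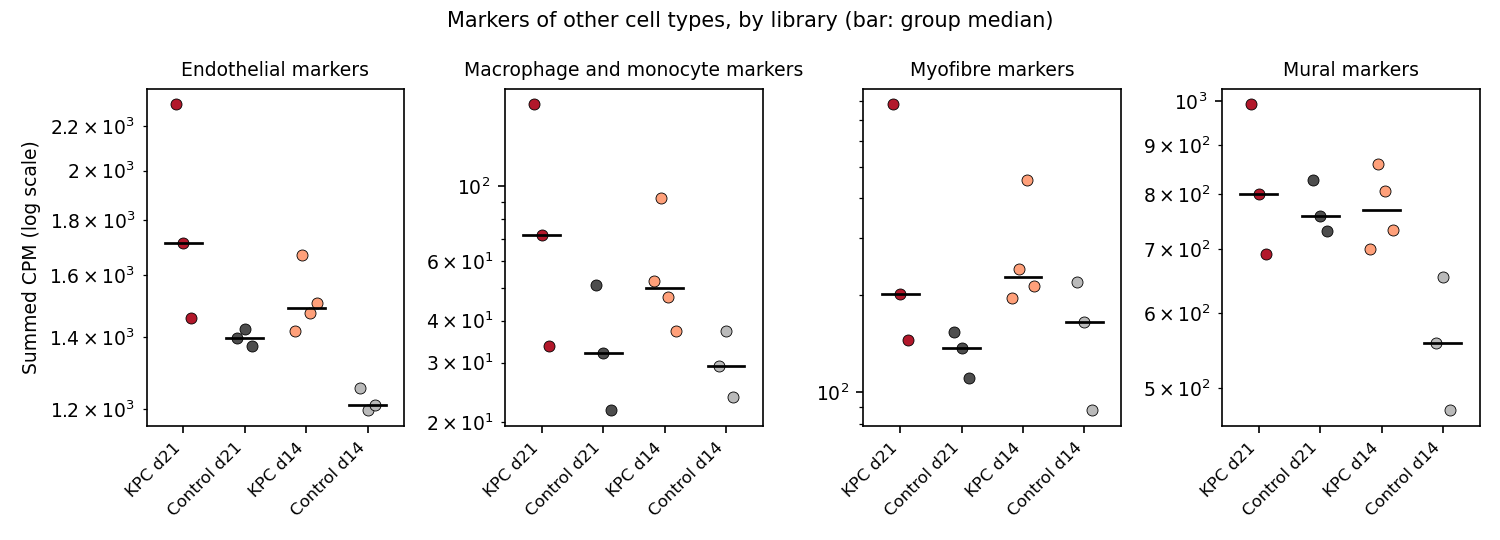
Summed CPM of the markers of 4 other cell types on a log axis, with 1 point per library and a bar at the group median, for KPC day 21, control day 21, KPC day 14 and control day 14. Endothelial markers were higher in every KPC library than in every control library of the same day, and KPC day 21 libraries spread widest.

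In limits, the mice differ between the days, so that a difference between days is one between sets of animals. Without KPC day 14 replicate 4 the difference was called in 1427 genes and 484 turned, and without KPC day 21 replicate 2 in 601 and 233.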

How the data were processed

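Counts per gene symbol, as deposited by the authors without normalization, were used for 13 libraries (total counts 12.9 to 26.4 M, megacounts). RNA had an integrity number of 7 or more, and reads were pairs of 59 bases. Per the submitters' processing notes, the build was mm10 and the tools were STAR, Bowtie, R 4.2.1, DESeq2 1.36.0 and bcl2fastq 2.20, with no roles given. No source here names the counting program or its use of strand, so reads of overlapping genes cannot be assigned.

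The tables of both days were joined on 24419 symbols, 25 of them date-like and never named. edgeR 4.0.16 in R 4.3.3 fitted 1 mean per group (TMM, minimum count 10, minimum total 15, robust, 2-sided), and 13834 genes were tested. The SE is the absolute log2 fold change over the square root of F. P-values measure the spread between these libraries. At levels near or under 1 CPM a library holds few counts, and counting error there was not set against that spread. Simulated counts with known changes were used to test the fit.

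Genes were named by rule (the largest turned genes, differences and moves with a mean of 1 or more in log2 CPM, called list members with the smallest p, and a set of sort and cytokine genes); Ccnl1, Dact3, Sorcs2, Fam71a, Cx3cr1, Cfd, Cxcl1, Ccl8, Has1, Stat3, Serpina3n, Hp, Col12a1, Plod1 and Mmp3 were added after their values were seen. Results for 2 genes are not reported here. The genes and the 39 lists were chosen with earlier results of these data known. Positions come from GENCODE vM21, and the exons of 13 of 124 named genes overlap another gene. Alternatives were DESeq2 1.42.0, limma-voom (limma 3.58.1), other scaling and filters, a replicate block, an endothelial covariate, all 20 libraries, fits per day and leaving out each library.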

Additional observations from a re-analysis of the deposited data

Results flagged for a closer look

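The KPC effect differed between day 21 and day 14 in 1131 genes by the test of the difference itself. Among the 7 genes with calls at both days and opposite signs, the difference (day 21 minus day 14, log2) was 3.37 for Ccl7, 2.01 for Ccnl1, 1.51 for Dnajb4, -1.37 for Dact3 and -1.44 for Sorcs2. For Fam71a the fit gave 7.96, a value that depends on the prior count, since 2 of its 3 day 21 controls had no count.

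Among the 4 KPC libraries of day 14, the only group large enough for an outlier test, 1 library stood apart by Dixon's test in 6 of 88 values, where chance flags about 1 in 20 groups. Ccl7 was at 12.1 CPM and Ccl2 at 11.6 CPM in replicate 3, below the other replicates (21.5 to 22.3 and 18.2 to 19.3 CPM). Xylt1 at 9.13 CPM (others 4.77 to 5.24) and Gar1 at 12.8 CPM (others 10.6 to 10.9) were high in the same replicate. Gch1 was at 4.34 CPM in replicate 2 (others 1.14 to 1.68), and Ptgs2 at 285 CPM in replicate 4 (others 104 to 124), the replicate with a code number of its own.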

How the results depend on the processing

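Main counts were 1131 genes with a called difference, 2097 and 51 with a called KPC effect at day 21 and at day 14, 193 and 125 turned to higher and to lower, and 349, 563 and 128 moved in controls alone, in KPC alone and in both. DESeq2 called 377 genes at day 14, and put 526 genes in controls alone and 216 in both. Without the filter on low counts 103 genes were called at day 14. Limma-voom with quality weights gave 2035 differences, 779 calls at day 14, 384 and 231 turned, 790 in controls alone and 321 in both. With all 20 libraries the counts were 91 differences, 436 and 2 calls at day 21 and day 14, 39 and 8 turned, and 19, 52 and 20 moved in controls alone, KPC alone and both. The endothelial covariate gave 466 and 2 calls at day 21 and day 14, and 27 and 6 turned. Fitted alone, day 14 had 149 calls. The cause of these shifts was not tested.

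Leaving out each library in turn gave 582 to 1808 differences, 1113 to 2437 calls at day 21, 13 to 209 at day 14, 100 to 317 and 58 to 177 turned, 114 to 533 in controls alone, 268 to 867 in KPC alone and 57 to 231 in both. The lowest count of differences came without control day 21 replicate 2 and the highest without KPC day 21 replicate 1.

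With the replicate block 1305 differences and 125 calls at day 14 were found, and 311 and 165 genes turned to higher and to lower. In that fit 24 and 2 genes were called at both days with opposite signs (higher and lower). Only KPC day 14 has a replicate 4, so the block fits that library exactly and takes it out of the comparison. Leaving that library out without a block gave 1427 differences, with 317 and 167 genes turned to higher and to lower. Thbs1 and Gnl3 lost their call with the replicate block (adjusted p 0.0583 and 0.0527), and Dpp4 gained one (0.0480). Of 18 same-numbered pairs, 1 had a correlation of deviations over 0.1 (range -0.111 to 0.187). With 3 or 4 libraries per group, low correlations cannot show that same-numbered samples were unpaired.

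Of 1540 values of the genes named under the alternatives, 1466 kept their direction and side of the threshold. Of 71 genes in the text with a called difference, 29 kept the call with all 20 libraries and 28 in every alternative run. The sign changed for 2 genes that were not called. Pecam1 was at -0.53 by limma-voom, and Ptprc at -2.49 by limma-voom, -0.62 with the replicate block, and -1.65 with the endothelial covariate, and Ptprc ran from -1.47 (without KPC day 21 replicate 1) to 1.51 when single libraries were left out.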

Other observations

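The day 26 libraries enter no comparison here, and their values are given on a scaling over all 20 libraries. Ptgs2 spanned 191 to 262 CPM in KPC and 203 to 533 CPM in control libraries of day 26, and Hk2 25.7 to 183 CPM in KPC and 31.0 to 54.0 CPM in control libraries. For both genes, the day 26 controls lay above the day 21 controls (52.4 to 70.2 CPM for Ptgs2, 21.5 to 28.9 CPM for Hk2). Spon2 spanned 1.73 to 36.5 CPM in KPC and 58.3 to 141 CPM in control libraries of day 26, and Eln 128 to 431 CPM in KPC and 533 to 818 CPM in control libraries, so that for both the groups did not overlap. Cxcl13 spanned 45.6 to 674 CPM in KPC and 39.3 to 73.5 CPM in control libraries of day 26, and those groups overlapped.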
